A study of Sus scrofa with 6 samples.

Results

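Glucose uptake, glycolysis and lactate production were followed through 10 pig genes: the glucose transporters SLC2A1 and SLC2A3, the hexokinases HK1 and HK2, the aldolases ALDOA and ALDOC, the kinase PGK1, the enolase ENO1 and the lactate dehydrogenases LDHA and LDHB. A gene was taken when its symbol belonged to an Ensembl pig gene identifier in the expression table, whatever its level. Symbols matched for 6 of the 10: HK1 (ENSSSCG00000010253), HK2 (ENSSSCG00000008261), ALDOA (ENSSSCG00000032556), ALDOC (ENSSSCG00000017759), ENO1 (ENSSSCG00000022343) and LDHA (ENSSSCG00000013366). SLC2A1, SLC2A3, PGK1 and LDHB were not analysed here, so the glucose transporter pair and the LDHA to LDHB balance could not be compared. The table held 20131 genes once 2 rows with one symbol were summed, and the 6 genes found had 1 row each. All 6 reached 1 TPM (transcripts per 1000000, a level corrected for transcript length) in at least 2 libraries, the condition for being tested.

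One kind of cell was pgEpiSC (pre-gastrulation epiblast stem cells), labelled as embryonic day 10; the other was pEF (porcine embryonic fibroblasts), labelled as embryonic day 30. The labels name no genetic change and no treatment for either kind of cell. After rRNA removal, strand-specific sequencing of total RNA gave 4 pgEpiSC libraries and 2 pEF libraries. The labels do not say which embryos, cell lines or cultures the libraries came from, so p-values measure only the spread between these libraries, which may be technical.

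Glycolysis splits glucose into pyruvate in the cytosol. Hexokinases trap glucose as glucose 6-phosphate, phosphofructokinases commit it to breakdown, aldolases split the resulting sugar phosphate, and the later enzymes down to enolase and pyruvate kinase yield ATP. Lactate dehydrogenase then turns pyruvate into lactate and restores the NAD+ that the pathway needs, whereas pyruvate dehydrogenase sends pyruvate into mitochondrial oxidation. Many of these genes are known targets of hypoxia-inducible factors and of MYC proteins, and stem cells of the post-implantation epiblast are known in other mammals for a strongly glycolytic metabolism.

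All listed genes together came to 157288 to 320206 TPM per pgEpiSC library, against 93556 and 145611 TPM per pEF library. A given TPM therefore does not stand for the same share of the listed TPM in each library. TPM keeps no read depth, the labels give only an average number of reads over the libraries, and the depth of each is unknown here. Values are therefore given as deposited and again after median-ratio scaling, which divides each library by its median ratio to a common reference (factors 0.704, 2.17, 1.63 and 0.730 for the pgEpiSC libraries in order, then 0.576 and 0.954 for pEF). A gene was called when limma, fitted to log2(TPM + 1) of all 10424 tested genes, gave a Benjamini-Hochberg adjusted p below 0.05; folds on this scale understate changes of low genes. As deposited, 18.0% of tested genes were called higher in pgEpiSC (1874) and 9.43% lower (983); after scaling 27.0% were higher (2810) and 30.9% lower (3222). Over all tested genes the median log2 fold, pgEpiSC minus pEF, was 0.48 as deposited and 0.02 after scaling. The labels matched the markers: 10 of 10 tested epiblast markers were called higher in pgEpiSC (summed level 528 to 2091 TPM against 0.133 to 0.685 TPM in pEF) and 14 of 14 fibroblast markers lower (40.9 to 88.7 against 2295 to 5284 TPM).

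LDHA, the lactate dehydrogenase that predominates in glycolytic cells, was the only one of the 6 genes called in the values as deposited, and it was lower in pgEpiSC. Among the other 5, limma called none, and none was called higher; the counts at an unadjusted p below 0.05 were the same, 1 lower and 0 higher. The share called lower, 1 of 6, stood beside 9.43% of all tested genes. The ranges of the 4 pgEpiSC and the 2 pEF libraries did not overlap for 1 of the 6 genes, LDHA, against 12.9% of all tested genes with separate ranges in that direction. After scaling 2 of the 6 genes, LDHA and ALDOA, were called lower, beside 30.9% of all tested genes, and again LDHA alone had separate ranges, where 35.9% of all tested genes did. The median log2 fold of the 6 genes was -0.17 as deposited and -0.80 after scaling, which is 0.65 and 0.82 log2 units below the median of all tested genes.

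**Figure D1:**
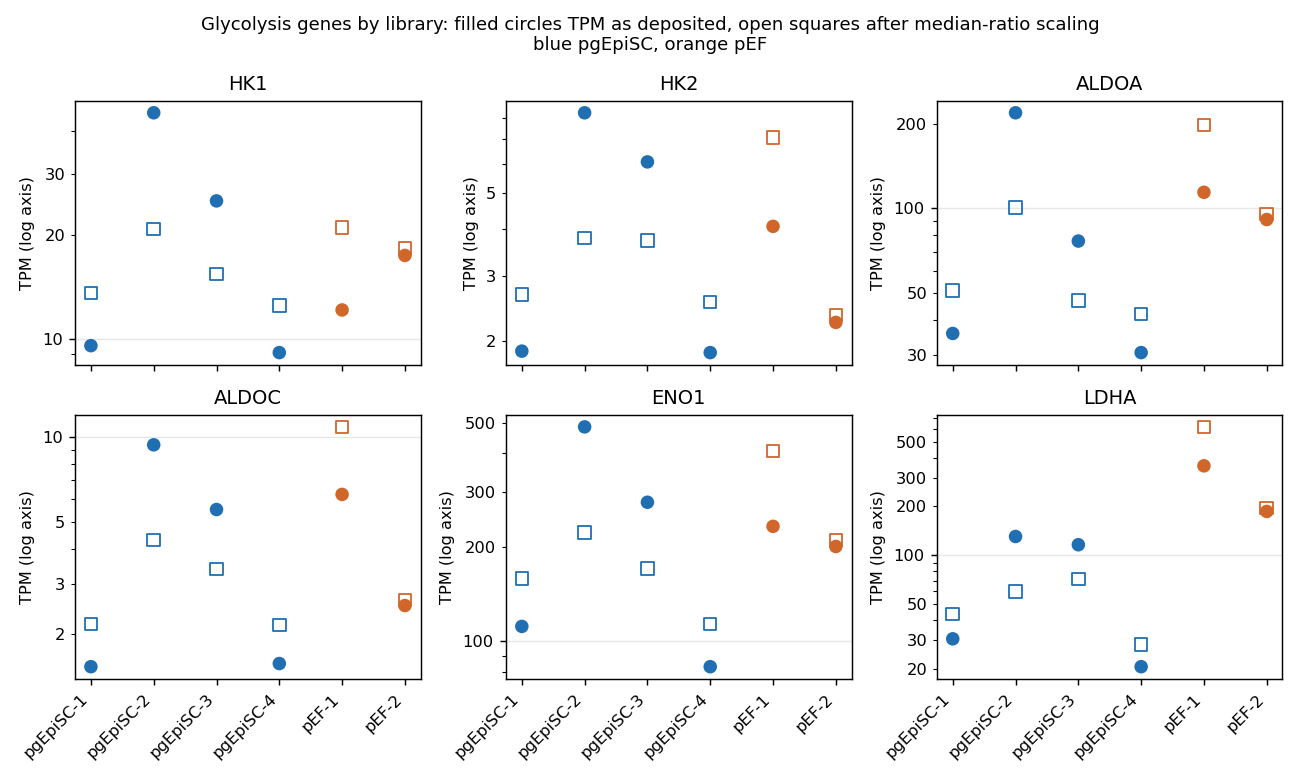
TPM of the 6 genes in each library (x axis, 4 pgEpiSC in blue and 2 pEF in orange; y axis, TPM on a log axis with its own range in each panel). Filled circles are values as deposited and open squares values after median-ratio scaling; LDHA is the panel in which both pEF libraries lie above all 4 pgEpiSC libraries on both scales.

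LDHA stood at 30.6, 131, 116 and 20.6 TPM in pgEpiSC libraries 1 to 4, against 356 and 186 TPM in pEF libraries 1 and 2. The highest pgEpiSC library lay below the lower of the pEF libraries, and libraries 1 and 4 were the low ones among pgEpiSC. The group means were 74.5 ± 56.9 TPM (SD, n = 4) in pgEpiSC and 271 ± 120 TPM (SD, n = 2) in pEF, a ratio of 3.64 in favour of pEF. The log2 fold was -2.18 ± 0.54 (SE; limma, adjusted p = 0.00193). After scaling LDHA read 43.5, 60.1, 71.4 and 28.3 in pgEpiSC and 618 and 195 in pEF, the ratio of means was 8.01 and the log2 fold was -2.83 ± 0.54 (SE; limma, adjusted p = 0.00251).

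The LDHA call as deposited needed both fibroblast libraries: limma gave a log2 fold of -1.72 (adjusted p = 0.273) without pEF library 1 and -2.65 (adjusted p = 0.0675) without pEF library 2, and with 1 library left in a group that library is assumed to vary like the others. It was also lost when no filter on low values was applied (limma, adjusted p = 0.170), where 18957 genes entered both the fit with its variance trend and the adjustment. Over all alternatives the adjusted p of LDHA ran from 3.75e-10 to 0.273 in limma. With scaling the call held without pEF library 1 (log2 fold -2.07, limma adjusted p = 0.0244) and without pEF library 2 (log2 fold -3.70, limma adjusted p = 0.00278), so the size of the fold varied with the fibroblast library kept. In bulk samples, fewer cells of a type and less RNA per cell cannot be told apart.

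A ratio of LDHA to another enzyme within a library does not depend on how that library is scaled. LDHA came to 27.4, 27.0, 41.8 and 24.8% of the TPM of ENO1, the main enolase, in pgEpiSC libraries 1 to 4, against 153 and 92.7% in pEF libraries 1 and 2. Against GAPDH, the glycolytic dehydrogenase upstream of PGK1, LDHA was 4.59 to 13.8% in pgEpiSC and 54.6 and 30.7% in pEF. Against PKM, the pyruvate kinase that makes the substrate of LDHA, it was 41.4 to 91.4% in pgEpiSC and 284 and 127% in pEF. The libraries of the 2 cell types did not overlap for any of the 9 enzymes used as denominator, which were HK1, HK2, ALDOA, ALDOC, ENO1, GAPDH, PKM, TPI1 and PGAM1. Separation was judged by the ratio of the lower pEF value to the highest pgEpiSC value. It was narrowest against TPI1, at 54.1 to 156% in pgEpiSC and 272 and 191% in pEF. ALDOA came next, at 59.8 to 152% in pgEpiSC and 312 and 204.5% in pEF. These ratios share LDHA as numerator and are given without a test.

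Hexokinases carry out the entry step, with HK1 as the broadly expressed form and HK2 as the form known to be inducible in growing and hypoxic cells. HK1 stood at 9.55, 45.3, 25.1 and 9.11 TPM in pgEpiSC libraries 1 to 4, against 12.1 and 17.4 TPM in pEF libraries 1 and 2. The pEF values lay inside the pgEpiSC range, and libraries 1 and 4 were again low. The log2 fold was 0.28 ± 0.56 as deposited (SE; limma, adjusted p = 0.735) and -0.34 ± 0.26 after scaling (SE; limma, adjusted p = 0.282), so its sign depended on the scaling and neither fold was called.

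HK2 was lower than HK1 in every library, at 1.88, 8.24, 6.08 and 1.86 TPM in pgEpiSC, against 4.07 and 2.24 TPM in pEF. The pEF libraries again fell inside the pgEpiSC range. The log2 fold was 0.25 ± 0.59 as deposited (SE; limma, adjusted p = 0.783) and -0.33 ± 0.33 after scaling (SE; limma, adjusted p = 0.415), with the sign turning as for HK1.

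The isozyme balance was taken as the log2(TPM + 1) of HK2 minus that of HK1 within each library. It was -1.87, -2.32, -1.88 and -1.82 in pgEpiSC libraries 1 to 4, against -1.37 and -2.51 in pEF. The pEF libraries thus bracketed all 4 pgEpiSC libraries. The means were -1.98 ± 0.23 (SD, n = 4) and -1.94 ± 0.80 (SD, n = 2), a difference of -0.04 (exact two-sided permutation test, p = 1; adjusted over the 2 pairs tested, 1; the 15 ways to choose 2 of 6 libraries allow no p below 0.0667). As plain TPM, HK2 was 0.197, 0.182, 0.242 and 0.204 of HK1 in pgEpiSC and 0.336 and 0.129 in pEF. A difference of this size was not detectable against the spread of the pEF pair.

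Of the summed TPM of HK1, HK2, HK3 and HKDC1, HK1 held 78.2 to 83.4% in pgEpiSC, against 73.7 and 86.4% in pEF libraries 1 and 2. HK2 held 15.2 to 18.9% in pgEpiSC, against 24.8 and 11.1% in pEF. The ranges overlapped for both genes.

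ALDOA, the aldolase of muscle and of most growing cells, stood at 35.9, 218, 76.4 and 30.7 TPM in pgEpiSC libraries 1 to 4, against 114 and 91.2 TPM in pEF libraries 1 and 2. One pgEpiSC library, library 2, was above both fibroblast libraries and the other 3 were below both. The log2 fold was -0.62 ± 0.53 (SE; limma, adjusted p = 0.392), and without pgEpiSC library 2 it was -1.20 and called (limma, adjusted p = 0.0110). After scaling the values were 50.9, 100.4, 46.9 and 42.1 against 198 and 95.5, and the log2 fold of -1.27 ± 0.45 was called lower (SE; limma, adjusted p = 0.0403). That scaled call was lost without pgEpiSC library 1, 3 or 4 (limma, adjusted p = 0.0772, 0.0818 and 0.0830) and without pEF library 1 (limma, adjusted p = 0.273), and with the replicate block, where the scaled log2 fold was -0.93 (limma, adjusted p = 0.212). Over all alternatives the adjusted p of ALDOA ran from 0.0110 to 0.811 in limma.

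ALDOC, the aldolase best known from brain, was at 1.52, 9.36, 5.52 and 1.56 TPM in pgEpiSC, against 6.24 and 2.51 TPM in pEF. The ranges overlapped, and the log2 fold was -0.14 ± 0.60 as deposited (SE; limma, adjusted p = 0.882) and -0.75 ± 0.44 after scaling (SE; limma, adjusted p = 0.174). ALDOA exceeded ALDOC by 3.87, 4.40, 3.57 and 3.63 log2 units in pgEpiSC and by 3.99 and 4.71 in pEF. The mean balance was 3.87 ± 0.38 (SD, n = 4) against 4.35 ± 0.51 (SD, n = 2), a difference of -0.48 that did not pass the test (exact two-sided permutation test, p = 0.2; adjusted over the 2 pairs, 0.4). ALDOA made up 93.3 to 95.9% of aldolase TPM in pgEpiSC and 94.8 and 97.3% in pEF.

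ENO1, the enolase of most cell types, was the highest of the 6 genes in all 4 pgEpiSC libraries, at 112, 485, 278 and 83.1 TPM, and stood at 233 and 201 TPM in pEF. Both fibroblast libraries fell between the low pgEpiSC libraries 1 and 4 and the high libraries 2 and 3. The log2 fold was -0.20 ± 0.49 as deposited (SE; limma, adjusted p = 0.790) and -0.85 ± 0.41 after scaling (SE; limma, adjusted p = 0.109).

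ENO1 ranked first of the 6 genes in pEF library 2 as well, and LDHA ranked first in pEF library 1. LDHA was second in pEF library 2 and pgEpiSC library 3, and came behind both ENO1 and ALDOA in pgEpiSC libraries 1, 2 and 4. HK1 had rank 4 in all 6 libraries, and HK2 and ALDOC took the last 2 places in an order that changed between libraries. LDHA held 16.02, 14.6, 22.9 and 14.0% of the summed TPM of the 6 genes in pgEpiSC libraries 1 to 4, against 49.1 and 37.2% in pEF libraries 1 and 2. ENO1 held 58.4, 54.1, 54.8 and 56.5% in pgEpiSC and 32.2 and 40.2% in pEF. HK1 held 4.95 to 6.20% in pgEpiSC and 1.67 and 3.48% in pEF, while the share of ALDOA overlapped between the cell types, at 15.1 to 24.4% and 15.7 and 18.2%. These shares are parts of one sum, so a larger LDHA share lowers the others. With LDHA left out of the sum, the share of ENO1 overlapped between the cell types, while that of HK1 did not.

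**Figure D2:**
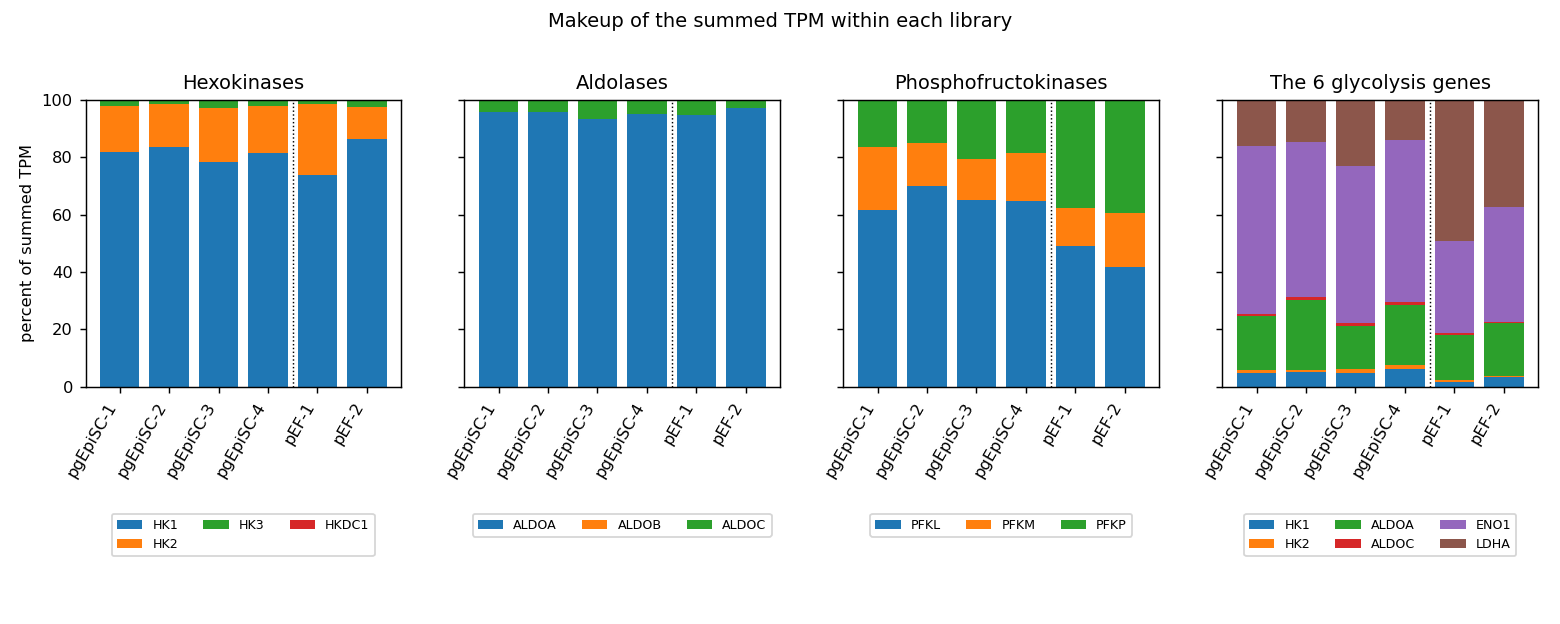
Makeup of the summed TPM of the hexokinases, aldolases, phosphofructokinases and the 6 glycolysis genes in each library (x axis, libraries; y axis, percent of summed TPM of the genes in the panel; the dotted line divides pgEpiSC from pEF). HK1 and ALDOA dominate their families in every library, PFKP takes 37.6 and 39.3% of phosphofructokinase TPM in pEF, and LDHA takes 49.1 and 37.2% of the 6 genes in pEF against 14.0 to 22.9% in pgEpiSC.

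As a share of all listed TPM, the 6 genes together held 0.122, 0.280, 0.243 and 0.0884% in pgEpiSC libraries 1 to 4, against 0.775 and 0.344% in pEF libraries 1 and 2. The groups did not overlap in this share, with means of 0.183 ± 0.0926% (SD, n = 4) and 0.560 ± 0.305% (SD, n = 2). That separation depended on the total used. Genes with a symbol came to 194549 TPM in pgEpiSC library 2 and 111985 TPM in pEF library 2. As a share of these, the 6 genes stood higher in pgEpiSC library 2 than in pEF library 2, so the groups overlapped. The summed TPM of the 6 genes as deposited did overlap, at 147 to 896 TPM in pgEpiSC and 501 to 725 TPM in pEF. For the share of all listed TPM, the difference of -0.376 percentage points had p = 0.0667 in an exact two-sided permutation test. This is the smallest value that 15 ways of choosing 2 libraries can give, so this design cannot reach 0.05. Summed without LDHA, a choice made after the values were seen, the other 5 genes held 0.102, 0.239, 0.187 and 0.0760% in the pgEpiSC libraries in order, against 0.395 and 0.216% in pEF, and the groups overlapped.

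The 2 pEF libraries differed between themselves in these genes. After scaling pEF library 1 exceeded pEF library 2 in 6 of the 6 genes, with a median ratio of 2.50 and a range from 1.15 for HK1 to 4.12 for ALDOC. LDHA was 3.17 times, HK2 3.01 times, ALDOA 2.07 times and ENO1 1.92 times higher in pEF library 1. Among 17 tested glycolytic enzymes and lactate dehydrogenases, the same 6 genes included, 16 (94.1%) were higher in pEF library 1, with a median ratio of 1.96. Over all tested genes above 0 in both libraries 49.3% were higher there, with a median ratio of 0.995. A like shift appeared within pgEpiSC. Scaled library 2 exceeded library 4 in 6 of the 6 genes (median ratio 1.98) and in 16 of the 17 (94.1%, median ratio 1.62). Over all tested genes 52.4% were higher in library 2. Between pgEpiSC libraries 1 and 4 the shift was smaller, with 11 of the 17 (64.7%) higher in library 1. With 1 library on each side these ratios have no replicate check.

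The pgEpiSC libraries spread less after scaling than as deposited. The highest to lowest ratio among them was 4.97 for HK1, 4.43 for HK2, 7.12 for ALDOA, 6.14 for ALDOC, 5.83 for ENO1 and 6.34 for LDHA as deposited. After scaling these ratios were 1.67, 1.49, 2.39, 2.01, 1.96 and 2.52 in the same order. The scaled library 4 was the lowest of the 4 for each of the 6 genes. Libraries 1 and 4 were the closest pair over all tested genes, with a median absolute log2 difference of 0.117 after scaling, against 0.231 to 0.317 for the other pgEpiSC pairs and 0.191 for the pEF pair.

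Beyond the 10 genes, 113 further genes were listed for transport, glycolysis, its regulation and the routes beside it, of which 98 were in the table and 75 were tested. As deposited 7 of the 75 were called higher in pgEpiSC and 12 lower, beside 18.0 and 9.43% of all tested genes. With the 6 genes included, 20 of 81 were called, and 47 were called after scaling (10 higher and 37 lower, beside 27.0 and 30.9% of all tested genes). Leaving out pEF library 1 or pEF library 2 reduced the 20 calls to 6 and 11.

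**Figure D3:**
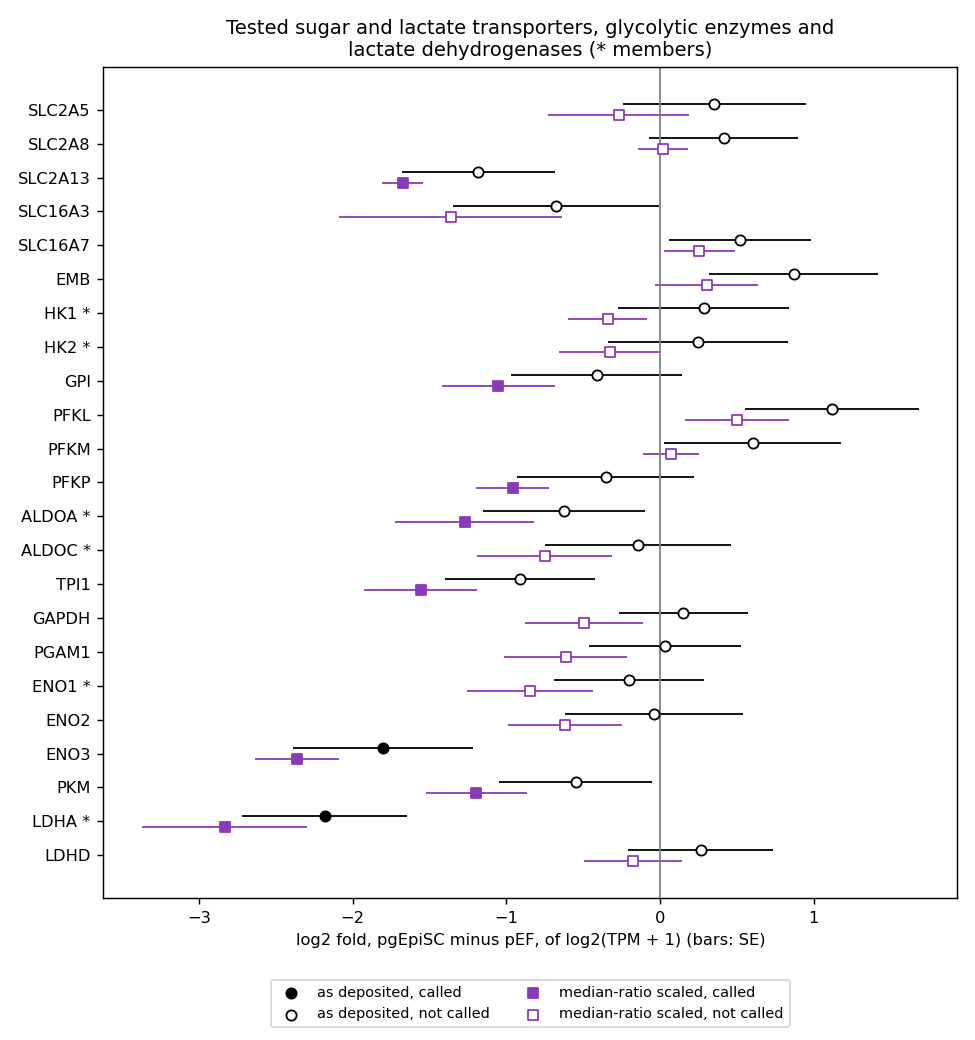
Log2 fold of log2(TPM + 1), pgEpiSC minus pEF (x axis), of each tested transporter, glycolytic enzyme and lactate dehydrogenase (y axis, in pathway order, the 6 genes with an asterisk); bars are the SE from limma, black circles values as deposited, purple squares values after median-ratio scaling, and filled symbols genes called. ENO3 and LDHA are called on both scales at -1.80 and -2.18 as deposited, and each scaled fold lies to the left of the one as deposited.

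Of 17 listed glucose and lactate transporters and their partners, 13 were found and 6 tested. limma called 0 of the 6 as deposited (1 had an unadjusted p below 0.05, SLC2A13), beside 18.0% of all tested genes called higher and 9.43% lower. After scaling it called 1 lower, SLC2A13, beside 30.9% of all tested genes. SLC2A5, the fructose transporter, stood at 10.8 ± 8.64 TPM (SD, n = 4) in pgEpiSC and 6.66 ± 3.16 TPM (SD, n = 2) in pEF, and SLC2A8, a glucose transporter of inner membranes, at 1.78 and 0.940 TPM. SLC2A13, which carries myo-inositol with protons, stood at 1.02 ± 0.646 TPM in pgEpiSC (SD, n = 4) and at 3.49 ± 1.27 TPM in pEF (SD, n = 2). Its log2 fold was -1.18 (limma, adjusted p = 0.0702) as deposited and -1.67 (limma, adjusted p = 3.00e-05) after scaling.

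Of 20 glycolytic enzymes found and reported here 15 were tested. As deposited limma called 1 of the 15 lower, ENO3, and 0 higher, beside 9.43 and 18.0% of all tested genes. The counts at an unadjusted p below 0.05 were the same. After scaling 6 were called lower (GPI, PFKP, ALDOA, TPI1, ENO3 and PKM), beside 30.9% of all tested genes. The most abundant was GAPDH, at 816 ± 539 TPM (SD, n = 4) in pgEpiSC and 629 ± 31.0 TPM (SD, n = 2) in pEF, with a log2 fold of 0.15 as deposited and -0.49 after scaling, neither called. PGAM1, the mutase before enolase, stood at 128 ± 95.6 TPM and 104 ± 23.7 TPM and was not called on either scale. TPI1, which interconverts the products of aldolase, stood at 69.3 ± 44.98 TPM in pgEpiSC and 114 ± 23.8 TPM in pEF, and PKM at 115 ± 87.8 and 136 ± 15.2 TPM (SD, n = 4 and 2). Their log2 folds were -0.91 and -0.55 as deposited, uncalled, and -1.56 and -1.19 after scaling (limma, adjusted p = 0.00727 and 0.0148). Both scaled calls were lost without pEF library 1 (limma, adjusted p = 0.0651 and 0.112), and that of PKM also with the replicate block (0.0977).

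ENO3, the enolase known from muscle, was at 0.642, 3.50, 1.71 and 0.598 TPM in pgEpiSC, against 3.82 and 13.3 TPM in pEF. Both fibroblast libraries lay above all pgEpiSC libraries, and pEF library 2 was the high one, the reverse of the order seen for LDHA. The log2 fold was -1.80 ± 0.58 (SE; limma, adjusted p = 0.0182), a call lost without either pEF library (limma, adjusted p = 0.0715 and 0.404) and without the filter (limma, adjusted p = 0.146). Of the 7 listed muscle markers 6 were found. Their summed level was 1.99 to 4.26 TPM in pgEpiSC, 25.1 TPM in pEF library 1 and 224 TPM in pEF library 2, most of it DES at 24.5 and 204 TPM. ACTC1 stood at 0.491 TPM in pEF library 1 and 17.1 TPM in pEF library 2, TNNT2 at 0.0677 and 1.80, and MYOG at 0.0238 and 0.549. MYOD1 was listed at 0 in pEF library 1 and stood at 0.437 TPM in pEF library 2, and CKM was at 0.0154 and 0.0190 TPM. Their part in the ENO3 difference was not tested. ENO2, the neuronal form, was at 2.83 and 2.36 TPM on average in pgEpiSC and pEF and was not called on either scale.

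The phosphofructokinases, picked out after their values were seen, differed in makeup between the cell types. PFKL, the liver-type subunit, held 61.6, 70.0, 65.0 and 64.7% of their summed TPM in pgEpiSC libraries 1 to 4, against 49.0 and 41.8% in pEF libraries 1 and 2. PFKP, the platelet-type subunit, held 16.5, 15.04, 20.7 and 18.6% in pgEpiSC and 37.6 and 39.3% in pEF. Neither share overlapped between the cell types, while PFKM, the muscle-type subunit, overlapped at 14.3 to 21.9% and 13.5 and 18.9%. As levels, PFKL had a log2 fold of 1.12 (limma, adjusted p = 0.137) as deposited and PFKP one of -0.35, and after scaling PFKP was called lower at -0.96 (limma, adjusted p = 0.00883) and PFKL was not called.

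Of the 3 lactate dehydrogenases found, 2 were tested. LDHD, which acts on D-lactate, stood at 1.54 ± 0.736 TPM in pgEpiSC (SD, n = 4) and 1.13 ± 0.827 TPM in pEF (SD, n = 2), and its log2 fold of 0.27 as deposited and -0.18 after scaling was not called. LDHC, the testis form, did not pass the filter, with at most 0.298 TPM in any library.

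Of 17 tested regulators of glycolysis, 2 were called higher in pgEpiSC and 1 lower as deposited, beside 18.0 and 9.43% of all tested genes. After scaling 2 were higher and 7 lower, beside 27.0 and 30.9%. MYCN, a MYC family factor of embryonic cells, was at 3.53, 19.7, 8.58 and 4.04 TPM in pgEpiSC, against 0.0122 and 0.0299 TPM in pEF. The cell types were far apart, and the log2 fold was 3.01 ± 0.59 (SE; limma, adjusted p = 0.000152). EGLN3, an oxygen-dependent hydroxylase that marks hypoxia-inducible factors for breakdown, was also higher, at 16.4 ± 12.9 TPM (SD, n = 4) against 2.82 ± 2.28 TPM (SD, n = 2), with a log2 fold of 2.06 ± 0.58 (SE; limma, adjusted p = 0.00678). As deposited both calls were lost without either pEF library, with adjusted p in limma between 0.0520 and 0.288.

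EPAS1, which encodes the hypoxia-inducible factor subunit HIF-2α, was at 0.00789 to 0.0238 TPM in pgEpiSC, against 2.16 and 4.41 TPM in pEF. It was called lower with a log2 fold of -2.03 ± 0.35 (SE; limma, adjusted p = 2.39e-05), and was called with each library left out in turn. HIF1A, which encodes the related subunit HIF-1α and was picked out after its values were seen, stood at 17.4, 45.8, 25.1 and 17.4 TPM in pgEpiSC, against 40.1 and 52.8 TPM in pEF. Its ranges overlapped as deposited, with a log2 fold of -0.89 (limma, adjusted p = 0.182), and after scaling it was called lower (log2 fold -1.53; limma, adjusted p = 0.00207).

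Hypoxia-response genes outside glycolysis were tested for 15 of 17 listed. As deposited 8 of the 15 were called lower in pgEpiSC and 0 higher (0 also at an unadjusted p below 0.05), beside 9.43 and 18.0% of all tested genes. After scaling 13 were called lower and 0 higher, beside 30.9 and 27.0% of all tested genes. Their median log2 fold was -1.53 as deposited and -2.12 after scaling, 2.01 and 2.14 log2 units below that of all tested genes. NDRG1, a stress-response gene, was at 0.324 ± 0.231 TPM against 15.9 ± 5.21 TPM, and ADM, a vasodilator peptide, at 0.0705 ± 0.0376 against 8.61 ± 1.41 TPM (SD, n = 4 and 2). LOX, which crosslinks collagen, and P4HA1, a collagen prolyl hydroxylase subunit, stood at 1.12 ± 0.546 and 3.17 ± 2.06 TPM in pgEpiSC, against 25.1 ± 15.99 and 27.9 ± 2.81 TPM in pEF (SD, n = 4 and 2). P4HA2, another collagen prolyl hydroxylase subunit, stood at 1.10 ± 0.718 TPM (SD, n = 4) in pgEpiSC, against 13.5 ± 1.97 TPM (SD, n = 2) in pEF. The log2 folds of NDRG1, LOX, ADM, P4HA1 and P4HA2 were -3.66, -3.51, -3.16, -2.93 and -2.85, with adjusted p in limma from 5.17e-07 to 0.000137. VEGFA, the endothelial growth factor, BHLHE40 and DDIT4 were called lower too and are named after their values were seen.

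Several of these genes are part of the normal output of matrix-producing fibroblasts, and the 14 found fibroblast markers were all lower in pgEpiSC, with the summed levels given above. How far cell type accounts for the counts in this list was not tested. Without pEF library 1, P4HA1 and VEGFA lost their calls as deposited (limma, adjusted p = 0.0542 and 0.0506), and DDIT4 lost its call without pgEpiSC library 1, 3 or 4 or either pEF library.

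**Figure D4:**
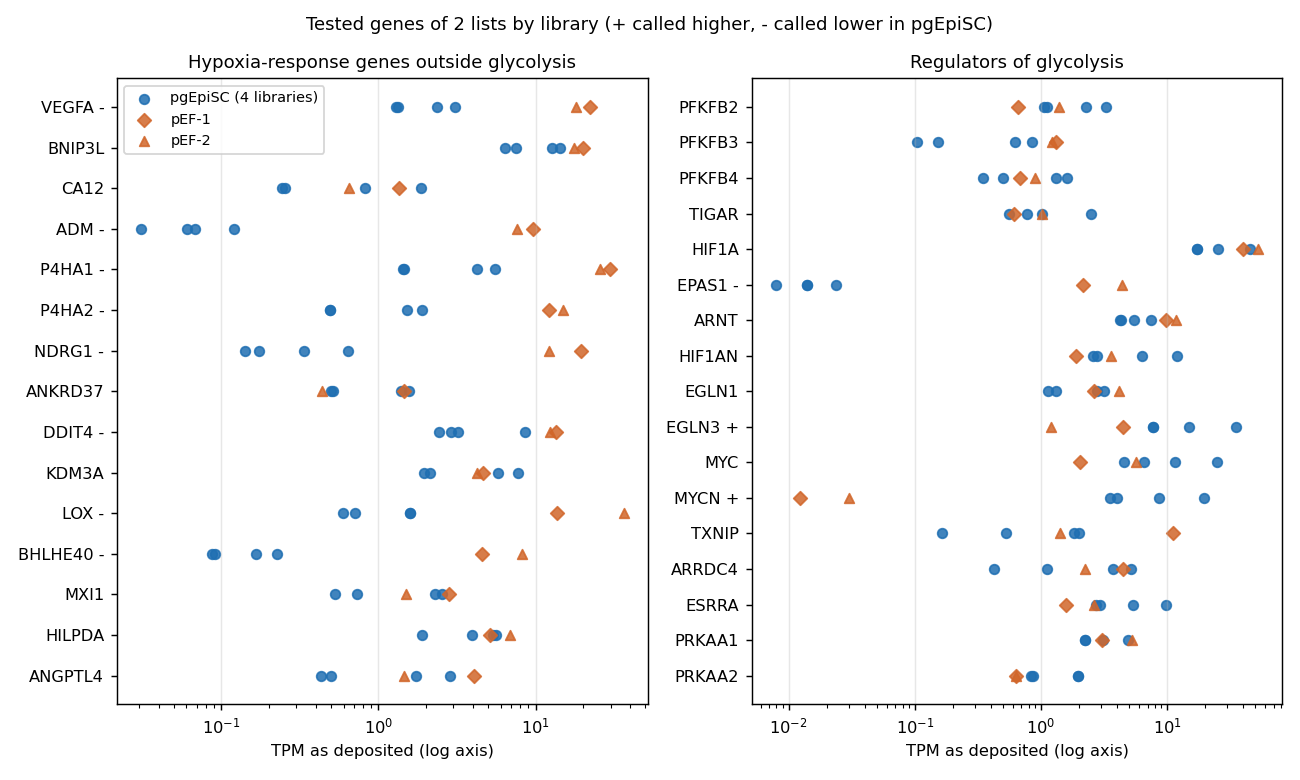
TPM as deposited (x axis, log axis) of the tested hypoxia-response genes outside glycolysis and of the tested regulators (y axis), with 4 pgEpiSC libraries as blue circles, pEF library 1 as orange diamonds and pEF library 2 as orange triangles; plus and minus mark genes called higher and lower in pgEpiSC. EPAS1 lies at 0.0238 TPM or below in pgEpiSC, MYCN at 0.0299 TPM or below in pEF, and 8 hypoxia-response genes carry a minus.

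Pyruvate that is not turned into lactate enters mitochondria through its carrier and the pyruvate dehydrogenase complex. Of 10 tested genes of this step 1 was called higher in pgEpiSC as deposited and 0 lower (4 and 0 at an unadjusted p below 0.05 in limma), beside 18.0 and 9.43% of all tested genes. DLD, the dihydrolipoamide dehydrogenase subunit that this complex shares with others, stood at 38.6, 42.1, 43.4 and 37.7 TPM in pgEpiSC, against 11.3 and 14.9 TPM in pEF. As deposited the pgEpiSC libraries lay close together and all above pEF. After scaling they spread from 19.4 to 54.9 and overlapped pEF, at 19.5 and 15.6. The log2 fold as deposited was 1.57 ± 0.48 (SE; limma, adjusted p = 0.0127). After scaling it was 0.96 and not called (limma, adjusted p = 0.0934), and the call as deposited was lost without pEF library 1 or pgEpiSC library 3 (limma, adjusted p = 0.151 and 0.0712). The median log2 fold of the list was 0.89 as deposited and 0.46 after scaling, 0.41 and 0.44 log2 units above that of all tested genes. The scaled counts were 3 higher and 1 lower, beside 27.0 and 30.9% of all tested genes.

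In the pentose phosphate pathway, which branches off after hexokinase, 1 of 6 tested genes was called higher and 0 lower as deposited (1 and 0 at an unadjusted p below 0.05 in limma), beside 18.0 and 9.43% of all tested genes. After scaling 2 were higher and 2 lower, beside 27.0 and 30.9%. TKT, the transketolase that links this pathway back to glycolysis, stood at 50.2 ± 37.3 TPM (SD, n = 4) against 14.4 ± 0.488 TPM (SD, n = 2). Its log2 fold was 1.46 ± 0.53 (SE; limma, adjusted p = 0.0338), a call lost without pgEpiSC library 2 or 3 or either pEF library (limma, adjusted p from 0.0537 to 0.298).

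Among 10 tested genes of gluconeogenesis and glycogen, 3 were called higher and 2 lower as deposited, beside 18.0 and 9.43% of all tested genes. After scaling 3 were higher and 6 lower, beside 27.0 and 30.9%. PGM2, a phosphoglucomutase family enzyme, stood at 15.7 ± 10.8 TPM (SD, n = 4) in pgEpiSC against 1.97 ± 0.957 TPM (SD, n = 2) in pEF, with a log2 fold of 2.33 ± 0.57 (SE; limma, adjusted p = 0.00169) that lost its call without pEF library 1 (limma, adjusted p = 0.159). PCK2, the mitochondrial PEP carboxykinase, and PYGB, the brain-type glycogen phosphorylase, were higher at log2 folds of 1.62 and 1.58 (limma, adjusted p = 0.0327 and 0.0408). UGP2, which makes the UDP-glucose used for glycogen, stood at 6.22 ± 1.24 TPM against 21.6 ± 2.32 TPM, and GBE1, the glycogen branching enzyme, at 5.81 ± 4.34 against 16.7 ± 0.0862 TPM (SD, n = 4 and 2). These 2 were lower at log2 folds of -1.66 and -1.57 (limma, adjusted p = 0.0152 and 0.0322). As deposited the calls of PCK2, PYGB, UGP2 and GBE1 were lost without either pEF library, with adjusted p in limma from 0.0776 to 0.626, and without pgEpiSC library 3, from 0.0530 to 0.120; that of GBE1 was also lost without pgEpiSC library 1 or 4 (0.0754 and 0.0845). After scaling all 5 of these genes were called in the same direction, but PCK2 lost its call without pEF library 1, where its log2 fold was 0.48 in place of 1.08 (limma, adjusted p = 0.258).

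Markers of other cells that the cultures could hold were examined in the same way. Of the endothelial and the blood and immune markers found, 5 and 6 genes, none reached the filter, and the highest level of any was 1.01 and 0.875 TPM. Of the hypoblast and endoderm markers 2 were tested and called higher in pgEpiSC (FOXA2 and CER1), with a summed level of the 6 found of 9.92 to 11.3 TPM in pgEpiSC against 0.160 to 0.421 TPM in pEF. The other 4 found were under 1 TPM in every library, and of these GATA6 averaged 0.0923 TPM in pgEpiSC against 0.270 TPM in pEF. Of the trophectoderm and amnion markers 3 were tested and 2 called higher (KRT8 and KRT18, keratins of simple epithelia), with 52.9 to 316 TPM in pgEpiSC against 0.632 to 1.28 TPM in pEF. Most of the pgEpiSC level was KRT8 and KRT18, on average 85.8 and 58.3 TPM. Of the 8 found 5 were under 1 TPM in every library. Among these, GATA3 and TFAP2A were higher in pEF, at 0.296 and 0.356 TPM on average against 0.0262 and 0.00523 TPM in pgEpiSC. Of the neural markers 3 were tested and limma called 0 (0 also at an unadjusted p below 0.05), with 13.2 to 51.0 TPM in pgEpiSC and 10.5 to 38.3 TPM in pEF. After scaling limma called 1 of these 3 higher, MAP2 (adjusted p = 0.0341), and 1 lower, NES (adjusted p = 0.0224), and TFAP2C joined the trophectoderm markers called higher (adjusted p = 0.0200). Their part in the values of the glycolysis genes was not tested.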

How the data were processed

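The deposited table holds TPM per Ensembl pig gene for 4 pgEpiSC and 2 pEF libraries, made by the authors. Per the submitters' processing notes the tools were STAR 2.6.0c with kallisto 0.44.0; no source used here gives a genome build or annotation. Symbols came from a table of Ensembl identifiers and matched 14062 of 20132 rows (69.8%). Reads that these genes share with processed copies or with the 6070 rows without a symbol could be split between rows, which was not checked. Coordinates and sequences are not given here.

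Libraries were grouped by their labels. limma 3.58.1 (R 4.3.3) was fitted to log2(TPM + 1) of the 10424 genes with at least 1 TPM in at least 2 libraries, with an empirical Bayes variance with trend and Benjamini-Hochberg adjustment over all of them. The fit was run on simulated libraries in which every gene had the same spread. That run therefore does not check the calls against the spread between the pEF libraries. Isozyme balances and the summed share were compared by exact two-sided permutation tests over libraries. Median-ratio factors used genes above 0 in every library. The alternatives were other pseudocounts (0.1 and 5), filters and scalings, a variance without trend or robust, a replicate block, and each library left out in turn on the same genes. The genes studied and the lists were chosen with earlier results of these data known. Named are the genes found, tested genes of the same families, up to 5 called genes of each list by absolute fold, and list genes with a mean of at least 100 TPM in either group; further names are said to be picked after their values were seen. Some listed genes are not reported here and were left out of the list counts.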

Additional observations from a re-analysis of the deposited data

Results flagged for a closer look

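The log2 balance of HK2 over HK1 was -2.32 in pgEpiSC library 2, apart from the other 3 pgEpiSC libraries, which lay between -1.88 and -1.82. Its gap to the nearest library was 0.877 of the range of the group, above Dixon's 95% critical value for 4 samples. It was the 1 such value among 34 examined, and chance alone marks about 1 in 20. In plain TPM the ratio of HK2 to HK1 in that library, 0.182, stood beside 0.197 to 0.242 in the other pgEpiSC libraries.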

How the results depend on the processing

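No alternative called any of the 6 genes higher. Genes called lower, 1 as deposited, numbered 0 without the filter, 2 after median-ratio scaling, 2 after rescaling to 1000000, and 0 to 4 with a library left out. Pathway genes called, 20 as deposited, numbered 11 without the filter, 47 with median-ratio scaling, 41 rescaled, 35 with the replicate block and scaling, and 6 to 48 with a library left out. All genes called, 2857 as deposited, numbered 1848 with a pseudocount of 5, 1660 without the filter, 1553 with a mean of at least 5 TPM, 6032 with median-ratio scaling, 5063 rescaled (2139 higher, 2924 lower) and 4923 with the block and scaling. With a pgEpiSC library left out they numbered 1851 to 3267 as deposited and 5437 to 6212 after scaling. As deposited, the fewest were called without pEF library 1 (933), pEF library 2 (1145) and pgEpiSC library 3 (1851).

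The HK2 to HK1 difference turned to 0.013 with scaling and ran from -0.61 to 0.53 with a library left out; that of the summed share ran from -0.592 to -0.161, and was -0.154 without LDHA in the sum, an alternative chosen after seeing the data. Signs of uncalled folds also turned. Values follow in the order median-ratio scaling, rescaling, block with scaling, and the range with a library left out. Each such fold range takes fits as deposited and after scaling together. HK1 had -0.34, -0.52, -0.21 and -0.47 to 0.59. HK2 had -0.33, -0.52, -0.31 and -0.995 to 0.57. SLC2A5 had -0.27, -0.44, -0.033 and -1.08 to 0.79. LDHD had -0.18, -0.28, -0.17 and -0.87 to 0.67. GAPDH had -0.49, -0.66, -0.405 and -0.95 to 0.42. PGAM1 had -0.61, -0.78, -0.53 and -1.24 to 0.35. SLC2A8 turned to -0.10 rescaled (-0.12 to 0.67 with a library left out), ENO2 to 0.042 with a pseudocount of 5 (-1.19 to 0.33), ALDOC to 0.020 (-1.64 to 0.38) and ENO1 to 0.11 (-1.35 to 0.19) with the replicate block.

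Without the filter the calls of LDHA, ENO3, EGLN3, TKT, PGM2, PCK2, PYGB, GBE1 and DDIT4 were lost, with fit and adjustment both over 18957 genes (limma). With a pseudocount of 5 those of TKT, PCK2, PYGB, GBE1 and DDIT4 were lost (limma). After scaling EGLN3 lost its call without pgEpiSC library 2 and without pEF library 2 (limma, adjusted p = 0.0681 and 0.287), and with the replicate block (1.69; adjusted p = 0.0552).

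The labels do not say that equal replicate numbers share a source. Deviations of equally numbered libraries correlated at 0.0982 and 0.172 as deposited, and at 0.0671 and 0.113 after scaling. The unequally numbered pgEpiSC library 4 and pEF library 1 gave 0.142 as deposited and 0.131 after scaling. With 2 pEF libraries, each value recurs with the opposite sign for the other pEF library. These correlations therefore cannot decide whether libraries were paired. With the replicate block 1 of the 6 genes was called, LDHA (log2 fold -2.003; limma, adjusted p = 2.36e-06), and 23 pathway and 3097 of all genes. Where no cause is given, the cause was not tested. TPM without counts gives no counting error, and 2 pEF libraries limit every comparison.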
